A study of Homo sapiens with 6 samples.

Results

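The lysosomal hydrolases and membrane proteins described here are 46 genes, chosen by name: glycosidases, sulfatases, lipid and phosphate hydrolases, proteases, activator and carrier proteins, proteins of the lysosomal membrane, and genes of the mannose 6-phosphate sorting route. Each was found on the arrays through probe sets (the groups of probes that report a gene) annotated with that symbol alone, and where a gene had several, the one with the highest mean on the 6 arrays was kept. All 46 of 46 listed genes had such a probe set, among 18417 genes tested. The drug-treated cells, called IDTC (induced drug tolerant cells), were WM164 cells kept for 16 days in PLX4032 (vemurafenib, an inhibitor of mutant BRAF) at 500 nM, and the Parent cells were WM164 cells given DMSO, the solvent. Both groups are the same BRAF-mutated human line, grown from a melanoma metastasis in a lymph node, with 3 arrays each. The design text states triplicate samples with separate RNA isolation and not whether the cultures were separate experiments, so the p-values measure a spread between samples that may be partly technical. The line is 1 tumour's cells, and the labels give no duration for DMSO.

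Lysosomes are the acidic compartments in which cells break down sugars, proteins, lipids and glycosaminoglycans (the sugar chains of proteoglycans). Most soluble lysosomal enzymes are tagged in the Golgi with mannose 6-phosphate and carried onward by receptors, while heavily glycosylated proteins such as LAMP1 and LAMP2 line the membrane. Many of these genes carry E-box sequences near their start sites that transcription factors of the MITF and TFE family can bind. Melanocytic cells also build melanosomes, pigment organelles related to lysosomes that share some of their proteins.

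In the drug-tolerant cells 28 of the 46 genes rose, 6 fell and 12 were not called. Differences are IDTC minus Parent on the log2 scale, and a call means an adjusted p below 0.05 (limma's moderated test, Benjamini-Hochberg over all genes). Over all genes tested, 21.7% rose and 24.9% fell (46.6% called in either direction), against 60.9% and 13.0% of the lysosomal genes. The 46 genes were bright, with a median level at percentile 89.3 of all genes, and bright genes were called more often. Without the dimmest 40% of genes by mean level, 29.6% of all genes rose and 39.6% fell. Of the 43 lysosomal genes left there, 28 rose and 7 fell. The median log2 fold change was 0.44 for the 46 genes and -0.015 for all genes. At 2-fold or more, 10 of the 46 rose, where 3.81% of all genes did. The deepest fall among them was that of GLA, at 1.64-fold, and 5.4% of all genes fell by 2-fold or more. The 3 IDTC arrays did not overlap with the 3 Parent arrays for 39 of the 46 genes (84.8%), where the share over all genes, bright and dim together, was 54.1%. Averaged over the 46 genes, the IDTC arrays stood at 9.84, 9.85 and 9.78 log2 units, against 9.32, 9.27 and 9.31 on the Parent arrays. The mean over all genes was 7.04 on each IDTC array and 7.06 to 7.08 on the Parent arrays. As in any bulk sample, a change in the number of cells of one kind and a change in RNA per cell cannot be told apart.

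**Figure D1:**
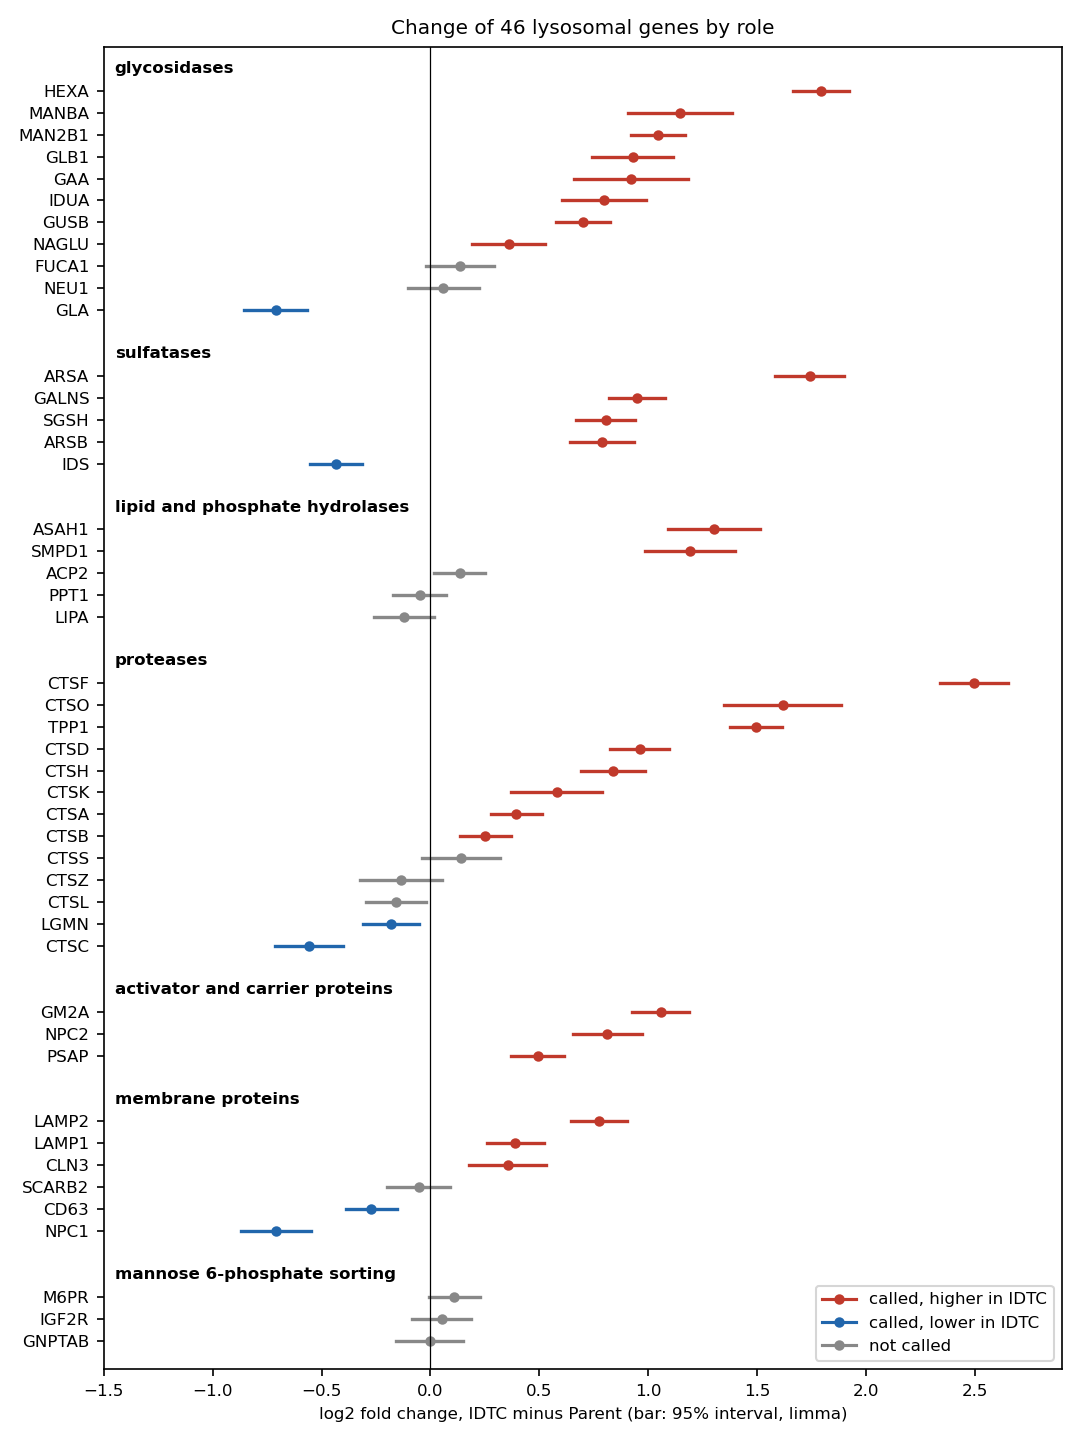
Log2 fold change (IDTC minus Parent, x axis) of the 46 genes, grouped by role and ordered within each role, with 95% intervals from limma. Of these genes 28 lie to the right of 0 as called (red), 6 to the left as called (blue), and 12 were not called (grey), among them all 3 genes of mannose 6-phosphate sorting.

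The arrays correlated at r = 0.995 to 0.998 within a group and at r = 0.953 to 0.957 between groups, across genes. The medians over all probe sets were 6.29 to 6.36 on the IDTC arrays and 6.25 to 6.32 on the Parent arrays. Of 7 measured melanocytic markers, SOX10, PMEL, MLANA, TYR and TYRP1 rose, S100B fell and MITF was not called, and their mean was 11.00 to 11.16 on the IDTC arrays and 10.15 to 10.19 on the Parent arrays. Macrophages are rich in lysosomes, so immune markers were read beside these genes: among 9 of them 1 rose, 2 fell and 6 did not pass the test, with a mean of 4.79 to 4.88 on the IDTC arrays and 5.37 to 5.39 on the Parent arrays. The 2 that fell, LYZ (-3.03 ± 0.09) and FCER1G (-2.13 ± 0.12), are both expressed by macrophages. The B cell marker MS4A1 passed narrowly as higher (0.37 ± 0.12, limma adjusted p = 0.0417). Its mean level lay at percentile 5.2 of all genes, and it is unknown whether its signal lay above background. CD14, CSF1R, CD163 and ITGAM, also markers of macrophages and related cells, were not called, nor were PTPRC and CD3E. Of 7 fibroblast markers LUM (-0.89 ± 0.14) and PDGFRA (-0.28 ± 0.06) fell and 5 were not called, with a mean of 6.02 to 6.10 on the IDTC arrays and 6.16 to 6.23 on the Parent arrays. Limma called none of 5 keratinocyte and 5 endothelial markers, and none of them had an unadjusted p under 0.05. Over all genes tested 21.7% rose and 24.9% fell. Of the immune markers 22.2% fell and of the fibroblast markers 28.6%, both near that share, while 71.4% of the melanocytic markers rose. The part of these marker lists in the lysosomal values was not tested. The arrays give no detection call, so no marker can be listed at 0.

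The promoters of several of these genes are shown because many lysosomal genes are known to carry E-box words there. A raised share of such words thus goes with choosing lysosomal genes and is no independent finding. RefSeq promoters (GRCh38.p14, 250 bases before to 50 after the annotated start) were held for 33 of the 46 genes. The 13 others were HEXA, NAGLU, MANBA, ARSA, SGSH, ASAH1, CTSB, CTSK, CTSO, CTSS, LGMN, PSAP and LAMP2. The words searched, on both strands, were an 8-base E-box, the plain E-box and an M-box. TCACGTGA is the core of the CLEAR element, a sequence known for the binding of TFEB. CACGTG is the plain E-box contained in it, and TCATGTGA, an M-box form known for the binding of MITF, was added after the promoter of TPP1 had been read. The first and the second word read the same on both strands. Where RefSeq listed several starts, the first listed promoter was counted.

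TCACGTGA stood in 6 of the 33 promoters (18.2%), against 1.47% of the 14239 promoters of genes tested and 1.04% of all 27305 genes with a promoter. The 6 were GAA, GALNS, CTSA, LAMP1 and CLN3, which rose, and IGF2R, which was not called. Of the 33 promoters, 17 were of genes that rose, 5 of genes that fell and 11 of genes not called. CACGTG, with or without the flanking bases, stood in 10 of the 33 (30.3%), against 8.88% of the promoters of genes tested and 7.43% of all. Besides the 6 genes just named, these were CTSF and CTSD, which rose, NEU1, which was not called, and CD63, which fell. TCATGTGA stood in the promoters of TPP1, which rose, PPT1, which was not called, and CD63, 3 of 33 (9.09%), against 0.934% of the promoters of genes tested and 1.01% of all. That count includes TPP1, whose promoter led to the word, so the share is raised by its own source. A match is a description of letters in this window and not of binding. The sequences below run 5′ to 3′ in the direction of the gene, with the words in capitals. They are the 5 genes with TCACGTGA that rose, IGF2R, which holds it and was not called, CTSF, which rose most, and TPP1 with its pair of M-box words.
GAA (chr17:80101331-80101630, plus strand): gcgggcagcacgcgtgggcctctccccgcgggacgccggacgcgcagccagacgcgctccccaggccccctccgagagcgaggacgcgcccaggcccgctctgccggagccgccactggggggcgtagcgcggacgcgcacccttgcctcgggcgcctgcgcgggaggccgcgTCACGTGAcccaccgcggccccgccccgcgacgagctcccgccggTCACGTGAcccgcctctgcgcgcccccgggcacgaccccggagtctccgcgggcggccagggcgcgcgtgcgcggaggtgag
GALNS (chr16:88856898-88857197, minus strand): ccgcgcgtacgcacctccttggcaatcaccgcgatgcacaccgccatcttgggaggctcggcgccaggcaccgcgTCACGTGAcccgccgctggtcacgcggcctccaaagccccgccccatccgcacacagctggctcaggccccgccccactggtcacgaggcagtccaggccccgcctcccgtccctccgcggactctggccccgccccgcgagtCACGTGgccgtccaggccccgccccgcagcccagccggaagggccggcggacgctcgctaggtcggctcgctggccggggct
CTSA (chr20:45891085-45891384, plus strand): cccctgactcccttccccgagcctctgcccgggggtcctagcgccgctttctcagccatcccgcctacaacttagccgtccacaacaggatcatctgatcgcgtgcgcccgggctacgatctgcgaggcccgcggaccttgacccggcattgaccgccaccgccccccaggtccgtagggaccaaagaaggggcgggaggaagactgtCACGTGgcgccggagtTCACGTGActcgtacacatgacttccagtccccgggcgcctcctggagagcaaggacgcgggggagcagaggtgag
LAMP1 (chr13:113296989-113297288, plus strand): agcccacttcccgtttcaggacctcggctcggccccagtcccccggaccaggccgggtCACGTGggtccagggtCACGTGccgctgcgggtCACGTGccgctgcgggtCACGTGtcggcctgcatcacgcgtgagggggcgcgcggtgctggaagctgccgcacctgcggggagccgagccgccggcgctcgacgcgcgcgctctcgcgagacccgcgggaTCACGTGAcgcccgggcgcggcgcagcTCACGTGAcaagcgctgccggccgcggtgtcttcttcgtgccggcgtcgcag
CLN3 (chr16:28492025-28492324, minus strand): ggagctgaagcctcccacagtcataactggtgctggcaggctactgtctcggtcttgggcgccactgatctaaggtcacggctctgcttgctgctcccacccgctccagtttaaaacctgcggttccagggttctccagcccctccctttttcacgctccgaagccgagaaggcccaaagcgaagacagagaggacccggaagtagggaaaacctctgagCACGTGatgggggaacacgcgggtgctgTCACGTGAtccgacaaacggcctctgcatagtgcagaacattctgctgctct
IGF2R (chr6:159968832-159969131, plus strand): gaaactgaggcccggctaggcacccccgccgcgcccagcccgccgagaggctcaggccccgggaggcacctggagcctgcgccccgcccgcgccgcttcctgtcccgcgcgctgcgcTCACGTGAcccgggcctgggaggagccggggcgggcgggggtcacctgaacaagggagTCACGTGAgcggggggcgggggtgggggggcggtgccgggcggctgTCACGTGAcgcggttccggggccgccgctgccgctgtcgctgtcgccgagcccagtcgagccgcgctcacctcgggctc
CTSF (chr11:66568557-66568856, minus strand): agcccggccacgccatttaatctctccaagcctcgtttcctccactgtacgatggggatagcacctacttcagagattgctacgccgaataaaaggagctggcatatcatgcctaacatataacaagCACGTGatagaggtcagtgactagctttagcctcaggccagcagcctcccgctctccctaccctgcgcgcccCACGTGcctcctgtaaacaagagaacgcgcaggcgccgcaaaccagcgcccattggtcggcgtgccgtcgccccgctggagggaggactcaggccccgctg
TPP1 (chr11:6619373-6619672, minus strand): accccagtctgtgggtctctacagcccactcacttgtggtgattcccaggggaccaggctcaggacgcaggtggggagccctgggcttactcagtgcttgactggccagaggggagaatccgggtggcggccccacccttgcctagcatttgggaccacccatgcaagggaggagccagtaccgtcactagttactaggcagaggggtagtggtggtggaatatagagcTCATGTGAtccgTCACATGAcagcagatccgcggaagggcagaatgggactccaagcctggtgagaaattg
GAA carries TCACGTGA starting 77 and 32 bases before its start, and LAMP1 carries it 29 and 2 bases before, with 4 further CACGTG words between 192 and 142 bases before. In CTSA it begins 26 bases before the start, in CLN3 2 bases before and in GALNS 175 bases before. Each of those 3 promoters also holds 1 CACGTG outside it. IGF2R holds TCACGTGA 133, 75 and 29 bases before its start. CTSF has CACGTG alone, 123 and 51 bases before. In TPP1 the M-box words begin 21 and 9 bases before the start, the nearer one on the other strand.

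**Figure D2:**
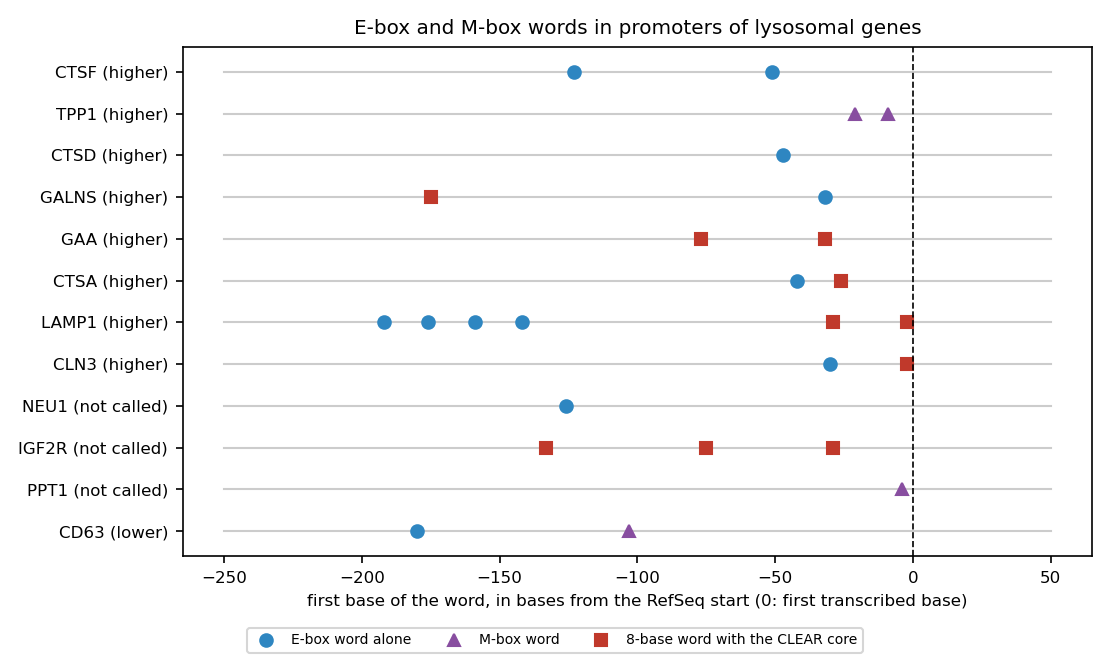
Position of each word in the 12 promoters of these genes that hold one, in bases from the RefSeq start (x axis), with genes ordered by log2 fold change from the highest at the top and their call in brackets. Red squares are TCACGTGA, blue circles CACGTG outside it and purple triangles TCATGTGA. The word TCACGTGA lies in 5 of the 17 promoters held for genes that rose and in that of IGF2R, which was not called. Promoters without any of the words are not drawn.

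Among the glycosidases, which cut sugar chains from glycoproteins, glycolipids, glycogen and glycosaminoglycans, 8 of 11 rose, 1 fell and 2 did not pass the test (their median log2 fold change was 0.80). HEXA, the alpha subunit of the hexosaminidase that cleaves GM2 ganglioside, changed most. It measured 11.28, 11.23 and 11.19 log2 units on the IDTC arrays, against 9.47, 9.40 and 9.47 on the Parent arrays. The log2 fold change was 1.79 ± 0.05 (SE), or 3.46-fold, with an adjusted p of 5.96e-07, and the groups lay far apart. MANBA and MAN2B1, which remove beta- and alpha-linked mannose from glycoprotein sugars, also rose by more than 2-fold. MANBA stood at 8.23, 8.03 and 7.88 on the IDTC arrays, against 7.00, 6.79 and 6.91 on the Parent arrays. The log2 fold change of MANBA was 1.15 ± 0.10, and its 3 IDTC values were spread more widely than those of MAN2B1. MAN2B1 stood at 10.28, 10.34 and 10.35 on the IDTC arrays, against 9.25, 9.26 and 9.33 on the Parent arrays, a log2 fold change of 1.04 ± 0.05.

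Smaller rises were found for GLB1, the beta-galactosidase that acts on GM1 ganglioside and keratan sulfate (log2 fold change 0.93 ± 0.08), and for GAA, which degrades glycogen (0.92 ± 0.11). The Parent values of GAA were the least tight of the glycosidases, at 8.07, 7.80 and 8.26, and all lay below the IDTC values of 8.99, 8.98 and 8.93. IDUA, GUSB and NAGLU, 3 enzymes of heparan sulfate breakdown, rose by 0.80 ± 0.08, 0.70 ± 0.05 and 0.36 ± 0.07 on the log2 scale. GLA, the alpha-galactosidase that degrades globotriaosylceramide, was the 1 glycosidase that fell. It measured 8.62, 8.65 and 8.56 on the IDTC arrays, against 9.23, 9.37 and 9.37 on the Parent arrays. Its log2 fold change was -0.71 ± 0.06 (adjusted p = 5.9e-05), with no overlap between the groups. The fucosidase gene FUCA1 was not called, at 0.13 with a 95% interval of -0.02 to 0.29, although its IDTC values lay above its Parent values. It passed the test after re-centring the arrays (0.198, adjusted p = 0.0316), after quantile normalization (0.208, adjusted p = 0.0129) and without IDTC 3 (0.182, adjusted p = 0.0465). The sialidase gene NEU1 was not called either, at 0.06 with an interval of -0.10 to 0.22, and its 2 dimmer probe sets gave 0.06 as well. CTSA and GLB1, whose proteins form a complex with the sialidase, both rose.

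Of the 5 sulfatases, which strip sulfate from glycosaminoglycans and from sulfatide, 4 rose and 1 fell (median log2 fold change 0.80). ARSA, the arylsulfatase that degrades sulfatide, measured 9.59, 9.57 and 9.54 on the IDTC arrays, against 7.70, 7.90 and 7.88 on the Parent arrays. That is a log2 fold change of 1.74 ± 0.07, or 3.34-fold, with an adjusted p of 1.5e-06. GALNS, which acts on keratan sulfate, rose by 0.95 ± 0.05. SGSH, which acts on heparan sulfate, rose by 0.80 ± 0.06, and ARSB, which acts on dermatan sulfate, by 0.79 ± 0.06. IDS, which removes sulfate from iduronate in heparan and dermatan sulfate, went the other way, at 11.70, 11.70 and 11.68 on the IDTC arrays and 12.16, 12.09 and 12.13 on the Parent arrays. The log2 fold change of IDS was -0.43 ± 0.05 (adjusted p = 0.000256), the groups did not overlap, and the dimmer probe set of the gene gave -0.35. Among the heparan sulfate enzymes in the list, IDS was thus lower while IDUA, GUSB, NAGLU and SGSH were higher.

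Of the 5 lipid and phosphate hydrolases 2 rose and 3 were not called. Those that rose act in sequence on sphingolipids: SMPD1 turns sphingomyelin into ceramide, and ASAH1 splits ceramide. ASAH1 measured 11.84, 11.77 and 11.71 on the IDTC arrays, against 10.66, 10.39 and 10.36 on the Parent arrays. It rose by 1.30 ± 0.09 on the log2 scale, or 2.47-fold (adjusted p = 1.83e-05). SMPD1 measured 9.39, 9.34 and 9.29 on the IDTC arrays, against 8.33, 8.01 and 8.11 on the Parent arrays, with a log2 fold change of 1.19 ± 0.09. In both genes Parent 1 was the highest Parent array and still lay below every IDTC array. LIPA, which frees cholesterol from its esters, was not called, at -0.12 with a 95% interval of -0.26 to 0.02. The palmitoyl thioesterase gene PPT1 was not called, at -0.05 with an interval of -0.17 to 0.07. The acid phosphatase gene ACP2 missed the threshold at 0.14, with an interval of 0.02 to 0.25 and an adjusted p of 0.0604. ACP2 passed it under 4 alternatives, among them re-centring of the arrays (0.198, adjusted p = 0.0124) and quantile normalization (0.265, adjusted p = 0.00225).

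**Figure D3:**
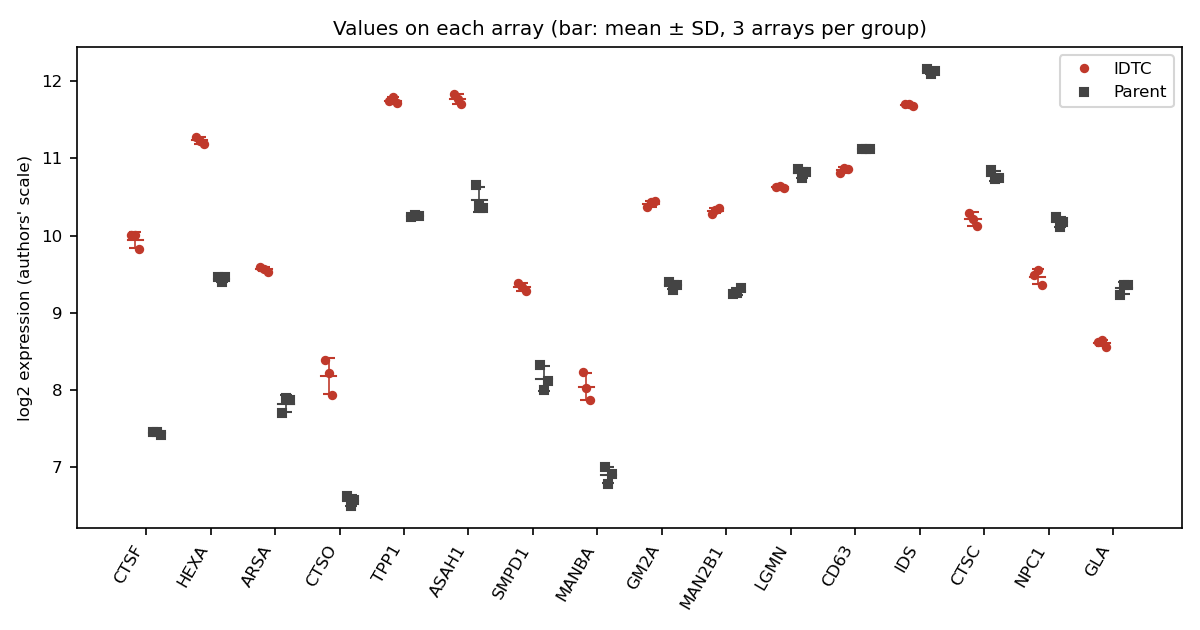
Log2 expression on each array (y axis) of the 10 genes that rose by 2-fold or more and the 6 that fell, ordered by log2 fold change from left to right, with IDTC arrays as red circles left of the Parent arrays as dark squares, and bars for the mean ± SD of 3 arrays. The groups do not overlap in any of these 16 genes, which goes with picking the genes by their calls. Over all genes tested, the share without overlap was 54.1%. The distance between the groups is greatest for CTSF, at 5.65-fold.

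The 13 proteases spanned the widest range of the role groups. Of these 8 rose, 2 fell and 3 were not called, over a range of log2 fold changes from -0.56 to 2.50. CTSF, a cysteine cathepsin, had the highest fold change of all 46 genes. It measured 10.01, 10.01 and 9.83 on the IDTC arrays, against 7.46, 7.46 and 7.42 on the Parent arrays. The log2 fold change was 2.50 ± 0.07, or 5.65-fold, with an adjusted p of 3.85e-07. CTSO, another cysteine cathepsin, measured 8.39, 8.23 and 7.94 on the IDTC arrays, against 6.63, 6.50 and 6.58 on the Parent arrays. It rose by 1.62 ± 0.11 on the log2 scale, and its SD of 0.23 among the IDTC arrays was larger than the 0.07 among the Parent arrays. TPP1, the tripeptidyl peptidase lost in a childhood neuronal ceroid lipofuscinosis, measured 11.74, 11.79 and 11.71 on the IDTC arrays, against 10.24, 10.27 and 10.25 on the Parent arrays. That is a log2 fold change of 1.49 ± 0.05, or 2.82-fold (adjusted p = 9.61e-07), in tightly grouped values.

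The aspartic protease gene CTSD rose by 0.96 ± 0.06 on the log2 scale, at 12.32, 12.36 and 12.34 on the IDTC arrays and 11.30, 11.40 and 11.44 on the Parent arrays. The aminopeptidase gene CTSH rose by 0.84 ± 0.06. CTSK, known for collagen breakdown by osteoclasts, rose by 0.58 ± 0.09 on the log2 scale. It stood at 6.09 ± 0.12 on the IDTC arrays and 5.51 ± 0.13 on the Parent arrays (SD, n = 3 each), and without a detection call it is unknown whether this lay above background. The serine carboxypeptidase gene CTSA and the cysteine cathepsin gene CTSB rose least, by 0.39 ± 0.05 and 0.25 ± 0.05. CTSC, the dipeptidyl peptidase that activates serine proteases of leukocyte granules, measured 10.30, 10.22 and 10.13 on the IDTC arrays, against 10.85, 10.74 and 10.74 on the Parent arrays. It fell by 0.56 on the log2 scale (SE 0.07, adjusted p = 0.000291) without overlap. LGMN, the asparaginyl endopeptidase that cuts other cathepsins into their mature chains, measured 10.63, 10.64 and 10.62 on the IDTC arrays, against 10.87, 10.75 and 10.82 on the Parent arrays. Its log2 fold change of -0.18 ± 0.05 passed narrowly (adjusted p = 0.028). The call of LGMN was lost without IDTC 1 (adjusted p = 0.0627), IDTC 2 (0.0639), Parent 1 (0.0741) or Parent 3 (0.0856), after re-centring (-0.120, adjusted p = 0.123) and after quantile normalization (-0.042, adjusted p = 0.522).

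The cysteine cathepsin genes CTSL, CTSS and CTSZ were not called. CTSL stood at -0.16 with a 95% interval of -0.29 to -0.02 (adjusted p = 0.0614). It passed the test without IDTC 1 (-0.194, adjusted p = 0.0426), without the dimmest 40% of genes (adjusted p = 0.0309) and with limma-trend (adjusted p = 0.0419). CTSS, known from antigen-presenting cells, stood at 0.14 with an interval of -0.04 to 0.32, and CTSZ at -0.14 with an interval of -0.32 to 0.05. Cysteine cathepsin genes of the list thus lay on both sides of 0, with CTSF, CTSO, CTSH, CTSK and CTSB higher and CTSC lower.

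All 3 activator and carrier proteins rose. GM2A, the activator that presents GM2 ganglioside to hexosaminidase A, measured 10.37, 10.43 and 10.44 on the IDTC arrays, against 9.40, 9.30 and 9.37 on the Parent arrays. Its log2 fold change was 1.06 ± 0.06, or 2.08-fold (adjusted p = 5e-06), so that the enzyme gene HEXA and its activator gene both rose by more than 2-fold. PSAP, the precursor of the saposins that help several sphingolipid hydrolases, rose by 0.49 ± 0.05. NPC2, which takes cholesterol from the lumen, measured 12.40, 12.39 and 12.29 on the IDTC arrays, against 11.65, 11.53 and 11.47 on the Parent arrays, and rose by 0.81 ± 0.07.

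The 6 membrane proteins were split, with 3 higher, 2 lower and 1 below the threshold (median difference 0.15 log2). LAMP2, a major protein of the membrane and a receptor in chaperone-mediated autophagy, measured 10.95, 10.96 and 10.89 on the IDTC arrays, against 10.21, 10.11 and 10.15 on the Parent arrays. LAMP2 rose by 0.78 ± 0.05 on the log2 scale (adjusted p = 1.97e-05). The related LAMP1 rose by 0.39 ± 0.06, and CLN3, a membrane protein mutated in juvenile neuronal ceroid lipofuscinosis, by 0.35 ± 0.07. NPC1, the membrane protein that receives cholesterol from the NPC2 protein and passes it out of the lysosome, measured 9.49, 9.55 and 9.36 on the IDTC arrays, against 10.24, 10.11 and 10.18 on the Parent arrays. Its log2 fold change was -0.71 ± 0.07 (adjusted p = 0.000102), opposite in sign to that of NPC2. CD63, a tetraspanin of lysosomes, melanosomes and exosomes, measured 10.81, 10.88 and 10.87 on the IDTC arrays and 11.12 on each of the 3 Parent arrays. It fell by 0.27 on the log2 scale (SE 0.05, adjusted p = 0.00316), and after quantile normalization its log2 fold change was -0.173 (adjusted p = 0.0262). SCARB2, which carries glucocerebrosidase to the lysosome, was not called, at -0.05 with a 95% interval of -0.20 to 0.09.

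None of the 3 genes of mannose 6-phosphate sorting was called by limma, and none had an unadjusted p under 0.05. GNPTAB, which encodes the catalytic subunits of the enzyme that makes the tag, stood at -0.0042 with a 95% interval of -0.16 to 0.15. IGF2R, the large cation-independent receptor, stood at 0.05 with an interval of -0.08 to 0.19. M6PR, the small cation-dependent receptor, measured 11.13, 11.15 and 11.09 on the IDTC arrays, against 11.01, 11.02 and 11.02 on the Parent arrays. Its log2 fold change of 0.11 had an interval of -0.01 to 0.23 (adjusted p = 0.111). These intervals exclude a 2-fold change of any of the 3 genes on these arrays. With another scaling some passed, M6PR after re-centring (0.173, adjusted p = 0.0268) and quantile normalization (0.209, adjusted p = 0.00713) and IGF2R after quantile normalization (0.177, adjusted p = 0.0186). M6PR also passed with limma-trend (adjusted p = 0.0128).

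Beyond the 46 genes, 54 further lysosomal genes were listed, of which 44 had a probe set of their own. Of these 23 rose (52.3%), 11 fell (25.0%) and 10 were not called, with a median log2 fold change of 0.19. Over all genes 21.7% rose and 24.9% fell, so the share of these genes that fell was near that of all genes, dim ones included. Without the dimmest 40% of genes, 22 of the 41 left rose and 12 fell, beside 29.6% and 39.6% of all genes. The 5 highest were the phospholipase D family gene PLD3 (1.63 ± 0.07), the chloride-proton exchanger gene CLCN7 (1.44 ± 0.06), the carboxypeptidase gene SCPEP1 (1.41 ± 0.06), the progranulin gene GRN (1.39 ± 0.05) and the mannosidase gene MAN2B2 (1.31 ± 0.05). The 5 lowest were ATP13A2, a polyamine transporter (-1.28 ± 0.06), the peptide transporter gene ABCB9 (-1.20 ± 0.09), EPDR1 (-1.13 ± 0.06), the thiol reductase gene IFI30 (-1.03 ± 0.07) and the amino acid transporter gene SLC36A1 (-0.66 ± 0.07). PLD3 measured 10.32, 10.38 and 10.26 on the IDTC arrays and 8.70, 8.61 and 8.77 on the Parent arrays. ATP13A2 measured 8.35, 8.43 and 8.31 on the IDTC arrays and 9.67, 9.66 and 9.59 on the Parent arrays. Chosen after their values were seen, 3 partners of the 46 genes also rose. GNPTG, the gamma subunit that works with the GNPTAB product, rose by 1.31 ± 0.09, whereas GNPTAB was not called. SUMF1, which activates sulfatases, rose by 0.39 ± 0.09, and HGSNAT, an acetyltransferase of heparan sulfate breakdown, by 0.32 ± 0.07.

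**Figure D4:**
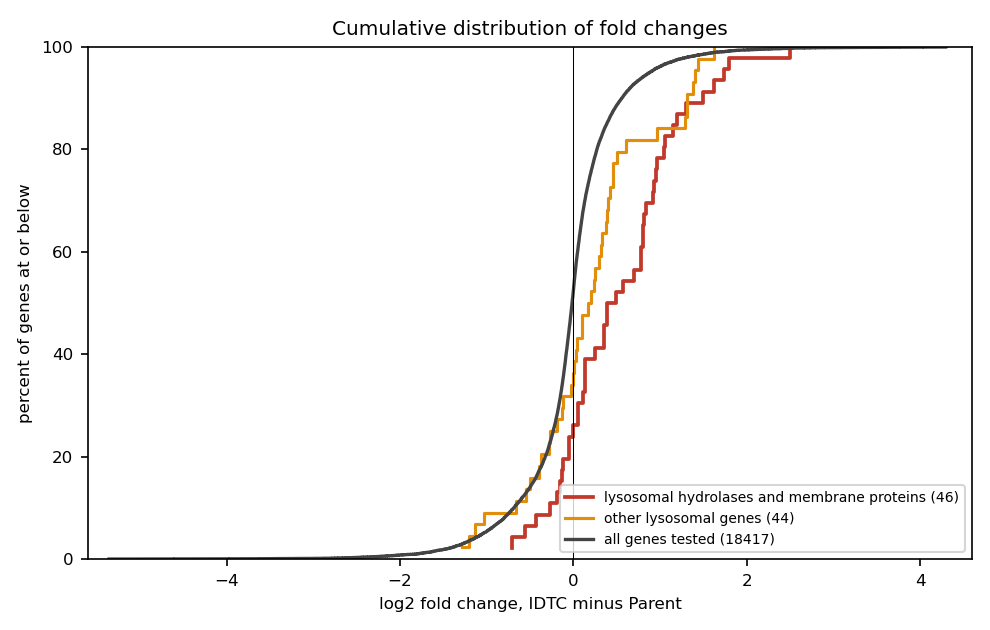
Percent of genes (y axis) at or below each log2 fold change (IDTC minus Parent, x axis) for the 46 lysosomal hydrolases and membrane proteins (red), the 44 other lysosomal genes (orange) and all 18417 genes tested (dark grey). The red curve lies to the right of the dark one over most of the range, with medians of 0.44 and -0.015, and the orange curve has a median of 0.19.

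Of 4 transcription factors of the MITF and TFE family, known for driving lysosomal genes, 2 rose and 2 were not called. MITF was not called, at 11.20, 11.07 and 11.04 on the IDTC arrays and 11.14, 11.14 and 11.13 on the Parent arrays. TFE3 was not called, at 0.08 with a 95% interval of -0.05 to 0.21. TFEB rose by 0.38 ± 0.06 (adjusted p = 0.00182), at 6.87, 6.80 and 6.89 on the IDTC arrays and 6.39, 6.55 and 6.50 on the Parent arrays. TFEC, at 4.53, 4.79 and 4.41 on the IDTC arrays and 3.98, 4.30 and 4.12 on the Parent arrays, rose by 0.44 ± 0.12 (adjusted p = 0.0183). It was among the dimmest 40% of genes, and it is unknown whether its signal lay above background. The call of TFEC was lost without IDTC 2 (adjusted p = 0.0512), Parent 1 (0.0625) or Parent 3 (0.0623). From a short list of 10 melanosome genes, 9 were measured and all 9 of these rose, where 21.7% of all genes did, with TYRP1 (2.89 ± 0.12), MLANA (1.45 ± 0.05) and TYR (1.20 ± 0.08) highest. CD63, which is also found on melanosomes and is not in that list, fell. These arrays measure RNA, so they hold nothing on the location or activity of the factors or on enzyme activity.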

How the data were processed

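RNA of 3 IDTC and 3 Parent samples was measured on whole-transcript arrays, and groups came from the sample titles. The deposited table holds log2 expression for 33297 probe sets, normalized by the authors, and per the submitters' processing notes the tools were Affymetrix Expression Console, RMA and Partek 6.6. No genome build of the arrays is stated, so gene coordinates other than those of the RefSeq promoters are left out. The platform annotation listed 21214 probe sets, 19460 of them with 1 symbol and 1754 with several. Of the single-symbol probe sets, 19429 matched a RefSeq record and no symbol changed. The brightest probe set per gene left 18417 genes.

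The 2-sided test of IDTC minus Parent used lmFit and eBayes of limma 3.58.1 under R 4.3.3, without covariates, with Benjamini-Hochberg adjustment over all genes. The procedure was tested on simulated data. The alternatives were 2 scalings, a filter on dim genes, 2 treatments of probe sets, 2 variance models, a replicate block and each array left out. The number of arrays limits the precision.

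The 46 genes, the other lists and the promoter words were chosen with earlier results of these data known. All 46 are named. Array values are given for genes called at 2-fold or more, those that fell, and the most changed of each role, with a few more where they help. Of the other lysosomal genes, the 5 highest and 5 lowest called are named.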

Additional observations from a re-analysis of the deposited data

How the results depend on the processing

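The counts of lysosomal genes moved little under the 14 alternatives. Higher genes numbered 28 to 32 and lower genes 5 to 7, beside 28 and 6 as reported, and the other lysosomal genes 20 to 24 and 10 to 12, beside 23 and 11. The median log2 fold change of the 46 genes was 0.506 after re-centring the arrays on their medians and 0.529 after quantile normalization, beside 0.443, and 0.431 to 0.457 with 1 array left out. Re-centring adds the same amount to the log2 fold change of every gene, and the median of all genes went from -0.015 to 0.048. Sign changes and added calls after re-centring go with this common shift. Of the 34 called genes, 33 had the same call under every alternative that measured them, and LGMN lost it. Of the 12 not called, 5 passed under some alternative and 3 changed sign. The sign changed after re-centring and quantile normalization for PPT1 (0.014 and 0.052), SCARB2 (0.010 and 0.058), GNPTAB (0.059 and 0.116) and also MITF (0.027 and 0.052). For quantile normalization the cause was not tested. With 1 array left out, GNPTAB ranged from -0.042 to 0.044. Same-numbered arrays deviated from their group means with correlations of 0.31, -0.19 and 0.26, and differently numbered ones with -0.47 to 0.37. These values show no clear pairing by number. They cannot exclude one, because the deviations of 3 arrays from their own mean depend on one another. With the number as a replicate block, 28 genes were higher and 5 lower, and LGMN had an adjusted p of 0.0543. CTSK, CTSS and CTSZ were among the dimmest 40% of genes and could not be tested there. Without a detection call, changes of dim genes may be understated.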

Other observations

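E-box words were also counted in promoters of wider sets of genes, as a description with no test. Of the 54 other lysosomal genes listed, 44 had a promoter, taken whether or not the gene had a probe set of its own. Among these 44 promoters, TCACGTGA stood in 6 (13.6%) and CACGTG in 10 (22.7%). Among genes tested, TCACGTGA stood in 2.27% of the 3221 promoters of genes that rose, 1.47% of the 3747 of genes that fell and 1.13% of the 7271 of genes not called. TCATGTGA, a word added after the promoters had been read, stood in 1.3%, 0.507% and 0.99% of the same promoters. Each of these 8-base words stood in 16 of the 573 promoters (2.79%) of genes that rose by 2-fold or more. The plain CACGTG showed another order, at 9.62% of the promoters of genes that rose, 10.5% of those that fell and 7.72% of those not called. Of the 10 lysosomal genes that rose by 2-fold or more, 5 had a promoter in the table, and TCACGTGA stood in 0 of these 5.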
